A study of Rattus norvegicus with 48 samples.

Results

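Saline-injected rats were compared with untreated rats to ask whether injection of the vehicle alone went with a difference in liver miRNAs. Members were chosen by label: every sample with saline in its title (12) and the untreated samples of the same diets and times (12), together 24 of the 48 samples in the series. All animals were male Sprague-Dawley rats, aged 8 to 14 weeks, pair-fed a Lieber-DeCarli liquid diet for 6 to 8 weeks. In it, 36% of calories came from ethanol (EtOH) or from maltose-dextrin carbohydrate (CHO). Which rats formed a feeding pair is not stated. Livers were sampled before (0 h) or 24 h after 70% partial hepatectomy (PHx), which removes most of the liver and starts its regrowth. The 8 groups of 3 samples were CHO 0h untreated, CHO 0h saline, CHO 24h untreated, CHO 24h saline, EtOH 0h untreated, EtOH 0h saline, EtOH 24h untreated and EtOH 24h saline. Saline (1 mL, into the peritoneum) is the vehicle of AM21, a locked nucleic acid oligonucleotide antisense to miR-21. Injections were given 72 h before surgery and directly after it. Livers at 0 h were thus taken before the second injection, so time and the number of injections cannot be told apart. The study calls the 3 samples of a group biological replicates, and the sources do not say whether samples of the same number at 0 and 24 h came from the same rat.

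MicroRNAs are short RNAs that pair with messenger RNAs, mainly through their seed bases, and lower the output of those messages. miR-122 is the main miRNA of hepatocytes. miR-21 is raised in many settings of injury and growth, and miR-199a is made largely by mesenchymal cells such as hepatic stellate cells. miR-451 and miR-144 are made together in red cell precursors and are carried by red blood cells, so blood in a tissue adds to their level. In whole liver, fewer cells of a type and less RNA per cell cannot be told apart.

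The NanoString nCounter assay reads out single molecules by barcoded probes, with no amplification step. Whole counts were recovered from the deposited log2 CPM (counts scaled to a common total, on a log2 scale) of 143 miRNAs. Totals ran from 58168 to 205241 counts over the 24 samples, with a median of 156768 in saline and 141106 in untreated samples. The lowest total was that of CHO 0h untreated replicate 2, and EtOH 0h untreated replicate 2 (92245) and CHO 24h untreated replicate 2 (92286) were next lowest, so the shallowest 3 samples were all untreated. The mean total was 20360 counts higher in saline samples (exact permutation within the 4 diet-time groups, two-sided p = 0.127, adjusted p = 0.254 over 2 measures), 3230 higher without set 2 (p = 0.759) and 32540 without set 1. miR-122 took 42.1% to 64.9% of counts, the measure by which the liver label was checked, and its share was 0.364 percentage points higher in saline samples (exact permutation p = 0.843, adjusted p = 0.843), with no steady direction when a set was left out (-1.44 without set 3 to 2.75 without set 2). Of the other hepatocyte miRNAs listed, miR-192 and miR-194 were measured and miR-148a was not among the miRNAs of the table.

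EtOH 0h saline replicates 1 and 2 stood apart in miR-21, with 448 and 120 counts where the other 22 samples had 717 to 9934. Their totals of 185564 and 155731 counts and miR-122 shares of 56.7% and 59.9% lay within the range of the other samples. The 12 AM21-treated samples, for scale, had 15 to 32 counts of miR-21. The SD of miR-21 among EtOH 0h saline samples was 2.27 on the log2 scale, and the median SD of a miRNA in that group was 0.20. Among the other saline and untreated groups the largest SD of any miRNA was 1.43 (miR-19a in CHO 0h untreated).

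Over all 4 diet-time groups, no miRNA passed the main test between saline and untreated livers. A fit that also held the 12 AM21-treated samples (36 in all) called miR-21 lower and miR-199a-5p higher (adjusted p = 0.0407 each). That fit differed from the main test in model too, as it took the mean of the 4 group differences. The AM21-treated samples also entered its shared spread. On the 24 samples alone, the mean of the 4 group differences gave miR-21 an adjusted p of 0.146 by limma (0.384 in the main test). A fit without set 2 called miR-3558-5p higher (adjusted p = 0.0382). By limma in the main test, 0 of 143 miRNAs (0%) had an adjusted p under 0.05. Of the 11 with an unadjusted p under 0.05, 5 (3.5%) were higher and 6 (4.2%) lower in saline samples. The smallest adjusted p was 0.168. The median difference, saline minus untreated, was -0.02 on the log2 scale, and 64 miRNAs (44.8%) lay above 0; with scaling to the 100 highest miRNAs the median was 0.005 and 78 lay above 0, so neither the side of the median nor that of the majority held. The 95% confidence interval was on the median 0.248 wide to each side. It lay inside a 1.5-fold difference in both directions for 135 miRNAs and inside a 2-fold difference for 140. A p over the threshold does not show that values were equal, but for most miRNAs a difference of 2-fold or more lay outside the interval.

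Of the 10 miRNAs with the smallest p, given as values, 4 were higher and 6 lower in saline samples. miR-199a-5p differed by 0.34 (interval 0.15 to 0.53, adjusted p = 0.168 by limma) and its partner arm miR-199a-3p by 0.31. miR-146a, which is induced by inflammatory signalling and dampens it, differed by 0.25 and miR-365 by 0.23. On the lower side were miR-21 (-1.10; -0.47 without EtOH 0h saline replicates 1 and 2, adjusted p = 0.525, chosen after seeing the data), miR-144 (-0.71), miR-451 (-0.55), miR-628 (-0.33), miR-3596c (-0.31) and miR-146b (-0.30). Against the untreated sample of the same set number, saline was above in 8 of 12 pairs for miR-199a-5p, 11 of 12 for miR-199a-3p and 10 of 12 for miR-146a and miR-365, and below in 10 of 12 for miR-21, 9 of 12 for miR-628, miR-3596c and miR-146b and 8 of 12 for miR-144 and miR-451. Outside the 10, miR-28 and miR-674-3p, picked once these counts were known, were below in 11 of 12. What a set number stands for is not stated, so these are counts only.

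Levels show how far these groups lay apart. miR-199a-5p ran from 9.05 to 9.79 log2 CPM in saline samples (median 9.45) and from 8.56 to 9.63 in untreated ones (median 8.94). miR-146a ran from 11.05 to 11.85 (median 11.39) against 10.88 to 11.71 (median 11.19), and miR-365 from 11.86 to 12.87 (median 12.36) against 11.42 to 12.70 (median 12.09). All 3 ranges overlapped. miR-628, miR-3596c and miR-146b were counted at most 71 times in any saline or untreated sample, with lowest counts of 19, 32 and 14. miR-3596c lay between 7.66 and 8.74 in saline samples and between 8.14 and 9.24 in untreated ones.

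**Figure D1:**
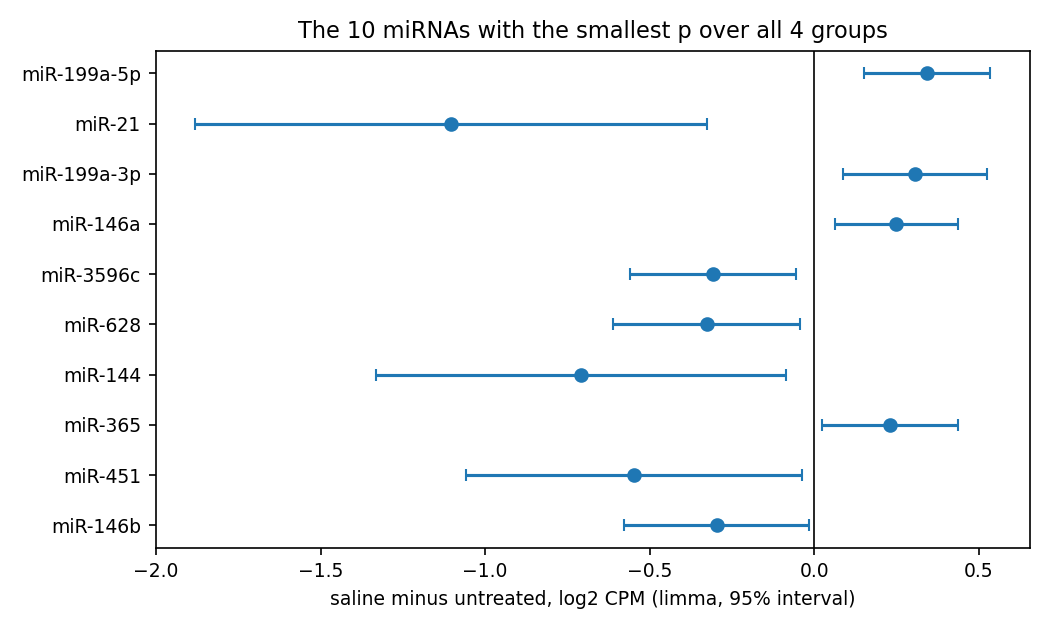
Difference between saline and untreated samples for the 10 miRNAs with the smallest p over all 4 diet-time groups (points, saline minus untreated in log2 CPM; bars, 95% confidence interval of limma; 12 samples on each side). miR-21 has the widest interval, from -1.88 to -0.33, and none of the 10 passed the adjusted threshold.

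In the main fit, miR-21 was the only miRNA called in any of the 4 groups. In EtOH 0h, untreated replicates 1 to 3 had log2 CPM of 14.99, 14.16 and 15.00. The saline replicates had 11.12, 9.65 and 14.10. The groups did not overlap, but replicate 3 of the saline group lay just below the lowest untreated sample while replicates 1 and 2 lay far below it. The difference was -3.09 (interval -4.40 to -1.78, adjusted p = 0.00964 by limma). This was 1 of 143 miRNAs called (0.699%), with 3 at an unadjusted p under 0.05. Interval and call rest on the SD of miR-21 shared by the 8 groups (0.89), where the EtOH 0h saline samples had 2.27. The call was lost without EtOH 0h saline replicate 1 (-2.84, adjusted p = 0.0912), without EtOH 0h saline replicate 2 (-2.11, 0.110), without EtOH 0h untreated replicate 1 (-2.96, 0.0691) and without EtOH 0h untreated replicate 3 (-2.95, 0.0707), and in a fit of those 6 samples alone (adjusted p = 0.921).

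The remaining groups did not show such low values. In CHO 0h the untreated replicates had 14.66, 13.46 and 14.65, and the saline replicates 12.97, 13.93 and 13.64, which overlapped. At 24 h, untreated CHO replicates had 15.58, 15.07 and 15.28 and saline ones 15.14, 14.97 and 14.72, and in EtOH 24h they had 15.76, 15.27 and 15.25 against 15.07, 15.11 and 15.48. Both pairs of groups overlapped. The differences were -0.75 in CHO 0h, -0.37 in CHO 24h and -0.21 in EtOH 24h, none called by limma. Their intervals were wide, at -2.06 to 0.56, -1.68 to 0.94 and -1.52 to 1.10 in that order. These tests used the SD of miR-21 shared by the 8 groups, which the EtOH 0h saline samples (SD 2.27) raised. The lack of a call thus cannot show that saline and untreated livers had equal miR-21 in these groups. The saline difference of miR-21 was not called as different between times (1.63, adjusted p = 0.730 by limma) or between diets (-1.09, adjusted p = 0.888). Without EtOH 0h saline replicate 3, miR-21 was called in both of these tests and in the test among the 4 groups (adjusted p = 3.48e-05), so whether the groups are called different depends on that sample.

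AM21-treated livers are set beside these for level. Their 12 samples lay between 6.59 and 7.76, below every saline and untreated sample, and the 2 lowest saline samples, EtOH 0h saline replicates 1 and 2 (miR-21 at 11.12 and 9.65), lay between them and the rest. Neither had the level of an AM21-treated sample or of the other 22 samples, and no AM21-treated sample had the level of those 22. For these 2 samples some exposure to AM21 and a difference between animals cannot be told apart, so whether the called difference of -3.09 belongs to saline was not tested.

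**Figure D2:**
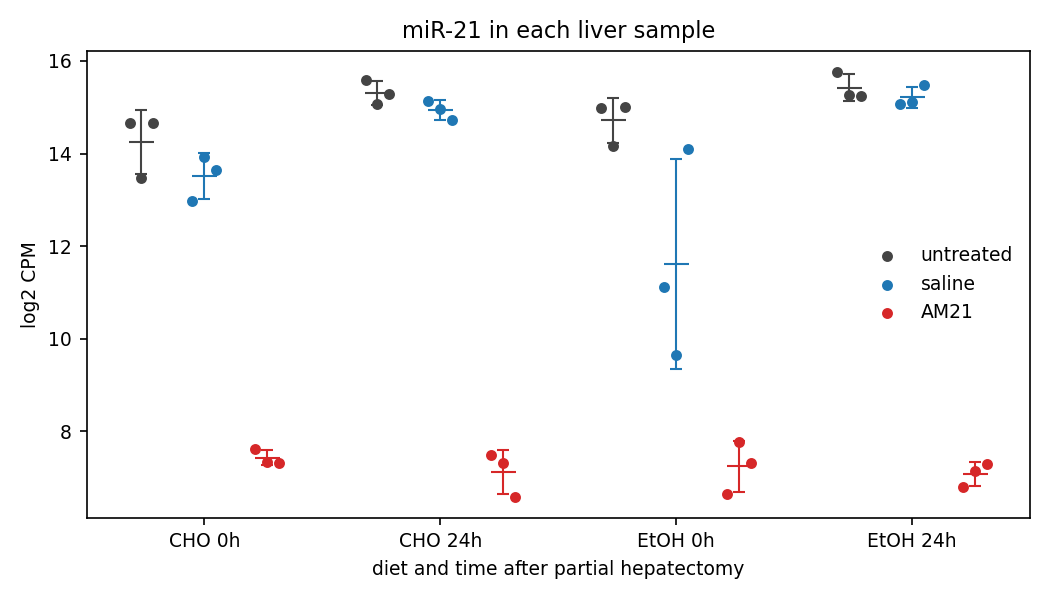
miR-21 in each liver (log2 CPM) by diet and time, for untreated, saline-injected and AM21-treated rats; points are samples (3 a group), horizontal marks the mean and bars the SD. The EtOH 0h saline group spans 9.65 to 14.10, while the saline samples of the other groups lie at 12.97 or above.

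In EtOH 24h, 0 of 143 miRNAs (0%) passed the limma test and 9 had an unadjusted p under 0.05, with a smallest adjusted p of 0.0820. miR-199a-5p had log2 CPM of 8.56, 8.87 and 8.96 in untreated replicates and 9.50, 9.42 and 9.57 in saline ones. All 3 saline samples lay above all untreated ones, and the difference was 0.70 (interval 0.34 to 1.05, adjusted p = 0.0820). The other arm, miR-199a-3p, had 11.59, 11.44 and 11.46 in untreated and 12.28, 11.88 and 12.33 in saline samples, without overlap (0.67, adjusted p = 0.0990). In EtOH 0h miR-199a-5p did not overlap either (0.41), while in CHO animals its groups overlapped at both times, with differences of 0.14 at 0 h and 0.12 at 24 h. miR-199a-3p was also without overlap in EtOH 0h and in CHO 0h (0.39), and lay at -0.13 in CHO 24h. By limma, the gap between diets was called neither for miR-199a-5p (0.43, adjusted p = 0.641) nor for miR-199a-3p (0.35, adjusted p = 0.888). Whether the arms differ from each other was not tested.

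The red cell miRNAs pointed the other way in the same group. miR-451 had 10.86, 10.24 and 10.11 in EtOH 24h untreated samples and 8.50, 8.86 and 9.0 in saline samples, all below the untreated ones (-1.62, adjusted p = 0.0820 by limma). miR-144 had 11.29, 11.57 and 11.08 against 9.20, 9.53 and 10.47, also without overlap (-1.58, adjusted p = 0.386). In CHO 24h the differences were -0.67 and -1.20 with overlapping groups, and at 0 h those of both diets lay between -0.26 and 0.33. The test of a difference between times called neither (miR-451 -1.19, miR-144 -1.37, adjusted p = 0.730 each). Fitted on the 6 samples of EtOH 24h alone, limma called both miR-451 and miR-144 as lower (2 of 143, smallest adjusted p = 0.00948). The summed level of both miRNAs was 950, 1210 and 1930 CPM in EtOH 24h saline samples and 4360, 4250 and 3270 in untreated ones. These are the blood markers, and their part in other differences of that group was not tested.

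**Figure D3:**
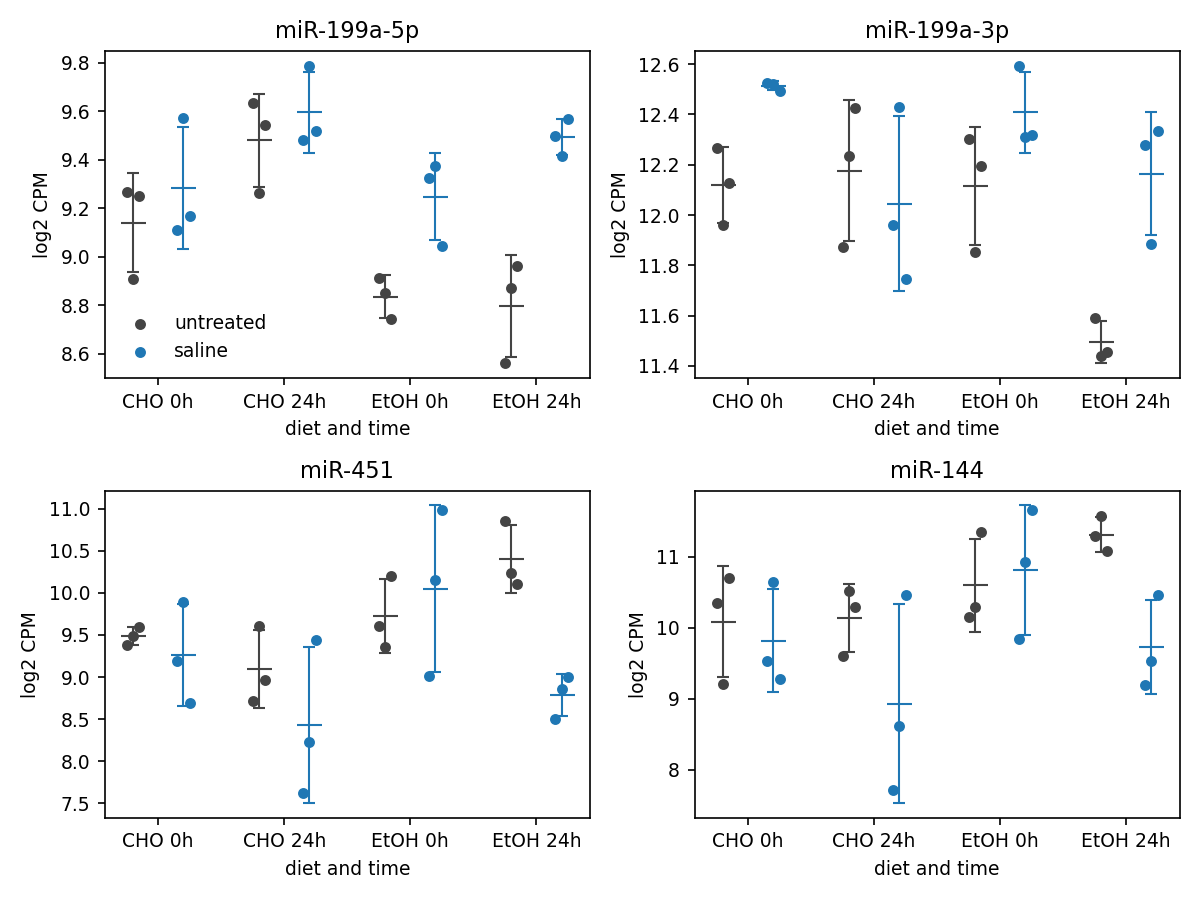
Both arms of miR-199a, miR-451 and miR-144 in each sample (log2 CPM) by diet and time, untreated and saline; points are samples (3 a group), horizontal marks the mean and bars the SD. In EtOH 24h saline samples of miR-199a-5p lie at 9.42 or above and untreated ones at 8.96 or below, and the order is turned for miR-451.

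In CHO 0h limma called 0 of 143 miRNAs (0%; 6 at an unadjusted p under 0.05). miR-103, which acts in insulin signalling, was 9.31, 9.12 and 9.38 in saline samples and 8.58, 8.86 and 8.54 in untreated ones, without overlap (0.61, adjusted p = 0.386), while in EtOH 24h all its saline samples lay below all untreated ones (-0.27). In CHO 24h limma called 0 (0%; 7 unadjusted), led by miR-200b, an epithelial miRNA (-0.89, adjusted p = 0.947), with saline samples at 7.50, 8.17 and 8.14 and untreated ones at 8.87, 8.91 and 8.70. miR-365 (0.49) and miR-27b (0.35) did not overlap there or in CHO 0h (0.36 and 0.35), but overlapped in EtOH 0h (0.18 and -0.09) and EtOH 24h (-0.12 and 0.03); neither was called as different between diets (adjusted p = 0.888 and 0.641). In EtOH 0h, miR-29b, a miRNA that lowers collagen messages, was the next after miR-21 (-0.76, adjusted p = 0.997).

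Over all miRNAs, those whose 3 saline samples all lay above or below their 3 untreated samples numbered 6 above (4.2%) and 6 below (4.2%) in CHO 0h, 5 (3.5%) and 5 (3.5%) in CHO 24h, 5 (3.5%) and 8 (5.59%) in EtOH 0h, and 15 (10.5%) and 7 (4.9%) in EtOH 24h. Of the 20 ways to arrange 3 against 3 samples, a single way puts all saline samples above and another puts all below. Some miRNAs thus separate without any difference between groups. EtOH 24h held the highest of these counts, and whether the counts differ between groups was not tested. Tests of whether the saline effect differed between times (0 called, 0%; 9 unadjusted), between diets (0, 0%; 7) and among the 4 groups (0, 0%; 4) called none by limma in the main fit. Without set 2, miR-142-3p, miR-29c and miR-29b were called between times. The diet test was led by miR-103 (-0.65) and miR-200b (1.06), both at an adjusted p of 0.167. Without CHO 24h saline replicate 2, miR-103 was called there (adjusted p = 0.0313), and without EtOH 24h saline replicate 3, miR-200b (0.0303).

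Of the markers listed for other cells, the mesenchymal list had 4 of 5 members measured. All were above 0, with a median of 0.23 against -0.02 over all miRNAs, and miR-214 was not in the table. Of these 4, 2 are the arms of miR-199a, already among the leading miRNAs. In each CHO group 3 members lay above 0 and 1 below, and in each EtOH group all 4 lay above. The most abundant member of the list, miR-145, which marks smooth muscle, differed by 0.03, and miR-143 by 0.15. Summed mesenchymal CPM ran from 13800 to 22300 in untreated and from 15000 to 24900 in saline samples, which overlapped. The red cell list (2 of 2) had a median of -0.63 and both members below 0. Leukocyte miRNAs (4 of 5) were 2 above and 2 below with a median of -0.03, and the endothelial miR-126 differed by -0.05. The epithelial list (2 of 5) had a median of 0.03, with both members below 0 in CHO 0h (-0.16) and CHO 24h (-0.59) and both above 0 in EtOH 0h (0.39) and EtOH 24h (0.50). The median was -0.03 for body-wall muscle (2 of 4), and the 3 adipose and pancreas miRNAs were not in the table. No marker member passed the limma test over all 4 groups. Those with an unadjusted p under 0.05 were both red cell members and 2 mesenchymal members, the arms of miR-199a.

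The listed families are given by their counts and medians. The let-7 family had 5 members above 0 and 3 below (median 0.02), the miR-17/92 and miR-106b clusters 5 and 2 (0.04), the miR-15/16 family 4 and 1 (0.04), and the miR-29 family 2 and 1 (0.01). The miR-30 family had 1 and 4 (-0.02), and miR-99/100 with miR-125 had 2 and 3 (-0.05). Inflammation and stress miRNAs were 4 above and 4 below (-0.07), and miR-101 with miR-23/27/24 were 3 and 4 (-0.002). Of the study's stellate activation lists, 14 of 16 members of the up list and 21 of 26 of the down list were found under their listed names. Of those found, 8 of 14 in the up list (0.02) and 11 of 21 in the down list (0.005) lay above 0. In the main fit none of the members of these lists was called over all 4 groups. In EtOH 0h, miR-21, a member of the up list and of the inflammation and stress list, was called lower. With each of the 3 other scalings miR-101 with miR-23/27/24 turned to 5 above and 2 below. With scaling to the 100 highest miRNAs the miR-30 family turned to 3 and 2, the let-7 family went to 7 and 1, the down list to 14 and 7 and body-wall muscle from 0 and 2 to 1 and 1.

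Of the miRNAs the study relates to miR-21, miR-340-5p differed by -0.12, let-7a by 0.01, miR-1224 by -0.03, miR-146a by 0.25 and miR-365 by 0.23, and none was called. miR-146a and miR-146b share a seed but lay on opposite sides of 0 (0.25 and -0.30).

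Mature sequences were taken from RefSeq (GRCr8) for the miRNAs that lead these comparisons. Of 143 names, 35 matched a RefSeq entry exactly. For these comparisons 21 miRNAs were looked up, either by their own name or, for older names without an arm, by an arm assigned by hand, and 19 were found. Seed bases 2 to 8 are in capitals.
miR-21-5p: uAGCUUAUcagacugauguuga
miR-199a-5p: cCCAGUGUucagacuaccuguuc
miR-199a-3p: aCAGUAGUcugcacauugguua
miR-451-5p: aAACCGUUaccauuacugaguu
miR-144-3p: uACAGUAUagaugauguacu
miR-146a-5p: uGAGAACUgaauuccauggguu
miR-146b-5p: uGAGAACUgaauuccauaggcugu
miR-3596c: aCUAUACAaccuccuaccuca

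Seeds of miR-146a and miR-146b were the same and all others shown were distinct. Hairpins of miR-144 (chr10:63459397-63459479) and miR-451 (chr10:63459569-63459640) lie 89 bases apart on the plus strand, and miR-21 lies on the minus strand (chr10:71902600-71902691). The reverse complement of miR-3596c occurs whole, all 21 bases, in mature let-7e-5p, and its hairpin (chr1:67350220-67350336, minus strand) covers the let-7e hairpin (chr1:67350229-67350321, plus strand). A G and C check was void, because sequences were at hand for 48 of 143 miRNAs (33.6%).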

How the data were processed

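NanoString counts of rat liver miRNAs were scaled by TMM and converted by voom to log2 CPM by the authors, who deposited 1 table of 143 miRNAs. Whole counts were recovered from the offset of 0.5. Models used limma 3.58.1 (R 4.3.3; lmFit, then eBayes) on the log2 CPM: diet-time group and saline for the pooled test, 1 mean for each of 8 groups otherwise, Benjamini-Hochberg over all miRNAs, called under 0.05. Permutations were exact. Fits were tested on simulated data, where a robust scaling was needed once miR-122 itself was changed. Named miRNAs were the 10 with the smallest pooled p, the 3 smallest without overlap in each group, the 3 smallest in each interaction test, miRNAs tied to miR-21, and measured markers. Members and lists were chosen with earlier results of these data known. Set numbers and positions are in the titles; position went with group in every set and cannot be told apart from it. Alternatives were RLE, 100-miRNA and plain CPM scaling, a filter of 50 counts in 3 samples, voom weights, replicate block, 36 samples, total count as covariate, without set 2, fewer samples and each sample left out. The fit of 36 samples, and another of the 24 samples in 8 group means, tested the mean of the 4 group differences. Python 3.11.15 and matplotlib 3.10.9 drew the plots. Samples at 6 and 72 h were not used.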

Additional observations from a re-analysis of the deposited data

How the results depend on the processing

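Scaling, the count filter, voom weights, the total count as covariate and the replicate block kept 0 called miRNAs over all 4 groups and 1 in EtOH 0h. Saline and untreated samples of the same set number had no steady correlation (4 of 12 pairs with r over 0.1, from -0.493 to 0.328). With 3 samples a group, that cannot show whether they were paired. The replicate block gave 1 call in EtOH 0h (adjusted p = 0.00581 by limma) and 0 elsewhere. With 36 samples and the mean of the 4 group differences, 2 were called over all 4 groups (miR-21 and miR-199a-5p, adjusted p = 0.0407). On the 24 samples alone, that mean gave miR-21 an adjusted p of 0.146 by limma. Without set 2, 1 was called over all 4 groups, 0 in EtOH 0h (miR-21 -2.39, adjusted p = 0.165), 3 in EtOH 24h and 3 between times. The miRNAs called then were miR-3558-5p over all 4 groups, miR-3558-5p, miR-743b and miR-199a-5p in EtOH 24h, and miR-142-3p, miR-29c and miR-29b between times; miR-3558-5p, miR-743b and miR-29c are not named by the rule and were picked once their values were known. Fits of 6 samples called 0 in EtOH 0h and 2 in EtOH 24h. Without both EtOH 0h saline samples of sets 1 and 2, chosen after seeing their miR-21, 0 were called in EtOH 0h and 1 in EtOH 24h; that fit leaves 1 saline sample in EtOH 0h, assumed to vary like the other groups, and takes out the samples that made the difference, so it is no test of the call. Robust or trended eBayes, chosen after seeing the data, gave 0 calls over all 4 groups. Fits of only the samples of 1 time, also chosen after seeing the data, cover both diets at that time and gave 0 calls. Leaving out 1 sample gave 0 calls over all 4 groups and in both CHO groups, 0 to 1 in EtOH 0h, 0 to 2 in EtOH 24h, and 0 to 1 between times, between diets and among the 4 groups. The miR-122 share turned to -0.221 without set 1 and -1.44 without set 3, and was 2.75 without set 2. miR-21 in EtOH 0h ran from -4.33 to -2.11 (adjusted p 4.12e-08 to 0.921), and was -0.62 in the fit with 1 saline sample. For the pooled difference, with the fits of 1 time counted as settings, 16 named miRNAs kept their direction in every setting. Another 15 changed it in at least 1, 89 times in all and 0 times with a call. With only the samples at 0 h, miR-451 turned to 0.048, miR-200b to 0.063, miR-139-5p to -0.18, let-7a to -0.021, miR-150 to -0.1 and miR-145 to -0.04. With only those at 24 h, miR-29b turned to 0.024, miR-1224 to 0.039, miR-122 to 0.04, miR-192 to -0.075, miR-194 to -0.05, miR-142-3p to 0.157, miR-1 to 0.03 and miR-206 to 0.106. With the total count as covariate, miR-1224 turned to 0.044, miR-122 to 0.052, miR-192 to -0.156, miR-194 to -0.14, miR-1 to 0.084 and miR-206 to 0.152, and without set 2 miR-1224 to 0.093, miR-122 to 0.092, miR-192 to -0.203, miR-194 to -0.17, miR-142-3p to 0.011, miR-1 to 0.116 and miR-206 to 0.255. miR-122 turned to 0.01 with RLE, 0.017 with the highest miRNAs (miR-1 0.004) and 0.005 without TMM, and miR-192 to -0.003 with voom weights. Without both EtOH 0h saline samples of sets 1 and 2, miR-194 turned to -0.001 and miR-206 to 0.036. Leaving out 1 sample gave ranges across 0 for miR-200b (-0.169 to 0.033), let-7a (-0.055 to 0.042), miR-1224 (-0.088 to 0.016), miR-122 (-0.077 to 0.039), miR-192 (-0.067 to 0.045), miR-194 (-0.052 to 0.05), miR-150 (-0.031 to 0.056), miR-126 (-0.148 to 0.005), miR-145 (-0.018 to 0.056), miR-1 (-0.067 to 0.067) and miR-206 (-0.091 to 0.036). The cause of these shifts was not tested. Counts near 50 or below, in 43 miRNAs by their median, limit precision.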
